A study of Homo sapiens with 2 samples.

Results

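Distal 21q, as the term is used here, is the stretch of chromosome 21 that begins at the far edge of the RUNX1 interval and runs to the last peak of the chromosome. Its members are all peaks on chromosome 21 of a single peak list whose summit lies above position 36421595 in build hg19. They number 10549 of the 315787 peaks in the list (3.34%) and 80.5% of the 13103 peaks on chromosome 21. The members were chosen by the position of their summits, and the stretch itself was selected on the density of peaks in the same list, so its density is given as a description, with no test.

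The list comes from Reh, a cell line grown from an acute leukaemia of B-cell precursors, in which the t(12;21) translocation has joined ETV6 with RUNX1. The cells had been given 200 ng of lentivirus (pCCL ETV6-HA), which makes ETV6 with an HA tag, with polybrene at 8 μg/mL. After 2 weeks in culture chromatin was pulled down with anti-HA beads and sequenced. The negative control was the same line with the untagged vector (pCCL ETV6), transduced, cultured and pulled down in the same way, so both arms carried an ETV6 vector. Each arm is 1 pooled library, and only the tagged pool has a peak list here. There are no replicates to give a spread, no test was run, and intervals are exact Clopper-Pearson 95% intervals that cover counting error over peaks only.

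ETV6 is a transcription factor of the ETS family, whose members bind DNA at a GGAA core, and it acts mostly as a repressor in blood cells. In the t(12;21) leukaemia its front part is fused to RUNX1, a master regulator of blood formation. Distal 21q is gene-rich. In the RefSeq table of GRCh38.p14, 115 of the 239 protein-coding genes of chromosome 21 follow RUNX1 in order. Known genes there include ERG and ETS2, ETS factors themselves, the kinase gene DYRK1A, HMGN1 for a nucleosome-binding protein, U2AF1 for a splicing factor, ITGB2 for a leukocyte integrin chain and COL6A1 for a collagen chain. A background list of 44 known genes was drawn up as genes beyond RUNX1. All 44 followed RUNX1 in that table, which checks the list and says nothing about where genes of the arm lie. Its build differs from that of the peaks, so no peak was assigned to a gene and no peak sequence is shown.

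Peaks were packed far more densely in distal 21q than in the part of the arm before RUNX1. Its 11.7 Mb held 903.3 peaks per Mb, against 72.4 per Mb (1580 peaks) in proximal 21q, the 21.8 Mb between 14340813 and 36160097 on the near side of RUNX1. The ratio of the densities was 12.5. Peaks covered 14.3% of the bases of distal 21q and 0.763% of those of proximal 21q. On the autosomes other than 21 there were 109.8 peaks per Mb, and peaks covered 1.21% of the span.

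The change in density did not sit exactly at the bound. In steps of 50 kb, counts beyond the bound were between 35 and 51 peaks for the first 600 kb. Just before it, the last 2 steps held 62 and 53 peaks, and the 10 steps before those held between 6 and 14. The RUNX1 interval from 36160098 to 36421595, which lies between both regions, thus had a sparse and a dense part, with 136 peaks in all (520.1 per Mb). The peaks just inside the bound were chr21:36422875-36423010 with a summit pileup of 15 reads, chr21:36425797-36426183 with 21 and chr21:36427548-36427661 with 18. Just outside it lay chr21:36418267-36418413 with 16 reads, chr21:36416489-36416623 with 15 and chr21:36414876-36414972 with 14. Pileup here is the number of reads stacked at the summit, recovered from the deposited fold and p.

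Proximal 21q was itself graded. Its last 2 Mb had 199.5 peaks per Mb, the 2 Mb before that 131, the next 6 Mb 72.7 and the remaining 11.8 Mb 40.9. The first 2 Mb of distal 21q had 896.5 peaks per Mb, 4.49 times the density of the last 2 Mb of proximal 21q. Among 250 kb windows, the densest of proximal 21q held 73 peaks, at chr21:35590813-35840812. The emptiest, at chr21:14840813-15090812, held 0 peaks.

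**Figure D1:**
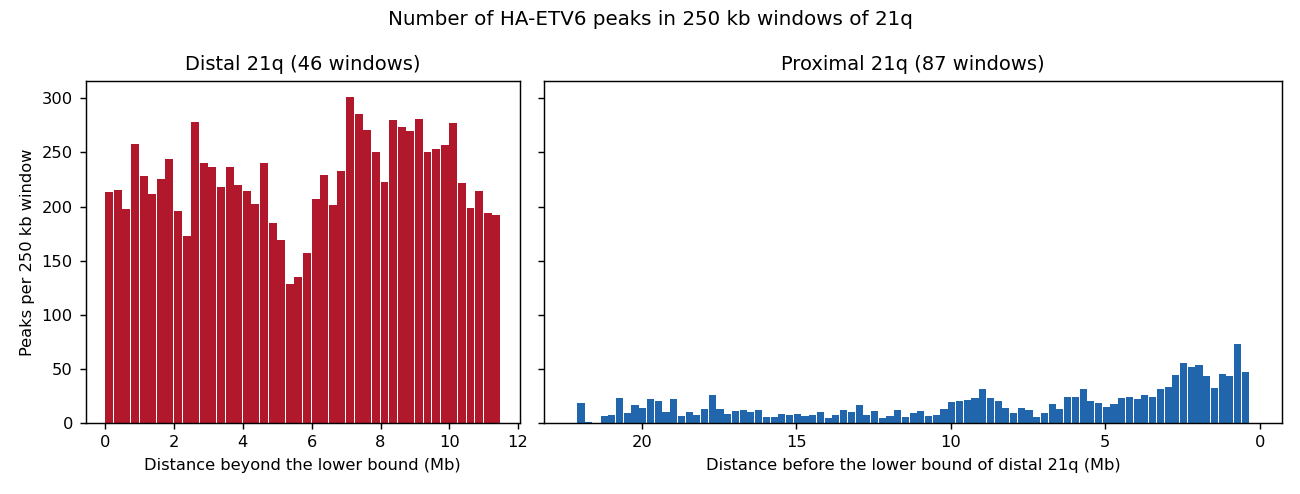
Number of peaks in each full 250 kb window (bars) of distal 21q, by distance beyond its lower bound in Mb, and of proximal 21q, by distance before that bound in Mb, on a shared axis. Every distal window lies above the highest proximal window, with a trough of 128 peaks between 5 and 6 Mb and the highest bar, 301 peaks, at 7 Mb.

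Along distal 21q the density formed 2 high stretches around a trough. The 46 full windows of 250 kb, laid from the bound, held between 128 and 301 peaks, with a median of 224, against 0 to 73 with a median of 13 in the 87 full windows of proximal 21q. All 46 lay above the densest proximal window. The coefficient of variation over windows was 17.4% in distal and 76.8% in proximal 21q. In blocks of 2 Mb from the bound outward, the density was 896.5, 899.5, 715, 989 and 1044 peaks per Mb, and 870.6 in the last 1.68 Mb. The third block held the trough, and the fifth was the densest. The rank correlation between position and window count was 0.196 over the 46 windows, which share 1 library, so there was little steady trend towards the end of the chromosome. The last, shorter window, chr21:47921596-48099769, held 163 peaks in 178.2 kb.

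The 2 densest windows adjoined each other, and the others of the top 5 lay apart from them. First came chr21:43421596-43671595 with 301 peaks, or 1204 per Mb, where peaks covered 20.6% of the bases. The adjoining chr21:43671596-43921595 held 286, and chr21:45421596-45671595, not adjoining these, came next with 281. Of the 46 windows, 14 held at least 250 peaks, and 21 held fewer than 250 but at least 200.

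The emptiest windows were also neighbours, and they form the trough. They were chr21:41671596-41921595 with 128 peaks, chr21:41921596-42171595 with 135 and chr21:42171596-42421595 with 157. Peaks covered 6.75% of the bases of the first of these. No other window held fewer than 150 peaks, and 9 held at least 150 but fewer than 200, the last of these 3 included. Even the emptiest distal window was 1.75 times as full as the densest proximal one.

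Few windows elsewhere were as full. Of 10995 windows of 250 kb on the other autosomes, with a median of 23 peaks, 9 (0.0819%) reached the 128 peaks of the emptiest distal window and 4 reached the distal median. The fullest of them was at chr4:190500001-190750000 with 316 peaks. Set against chromosome ends, distal 21q stood at 903.3 peaks per Mb, and the last stretch of the same length on the 21 other autosomes had between 83.7 (chromosome 18) and 223.8 (chromosome 9), with a median of 160.2. These ranges describe the list, and density is what the stretch was chosen for.

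Distal peaks were wider than proximal peaks. The median width was 133 bp in distal 21q (quartiles 91 and 189), against 95 bp (quartiles 69 and 125) in proximal 21q and 98 bp on the other autosomes. Widths of at least 200 bp were reached by 2378 distal peaks (22.5%, 21.7 to 23.4), against 62 proximal peaks (3.92%, 3.02 to 5). At 500 bp or more the numbers were 121 and 2. The 3 widest distal peaks were chr21:45943396-45944501 with 1106 bp, chr21:45023766-45024634 with 869 bp and chr21:43906433-43907299 with 867 bp. They were not the tallest, with pileups of 31, 19 and 23 reads.

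Width varied less along the segment than density did. Window medians ran from 115.5 bp, in the emptiest window, to 154 bp in chr21:45921596-46171595, and all 46 exceeded the proximal median of 95 bp. By block the medians were 135, 128, 122, 133, 139 and 137 bp, again lowest in the block with the trough. The rank correlation of window median width with window count was 0.481, and with position 0.385, over the same 46 windows.

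**Figure D2:**
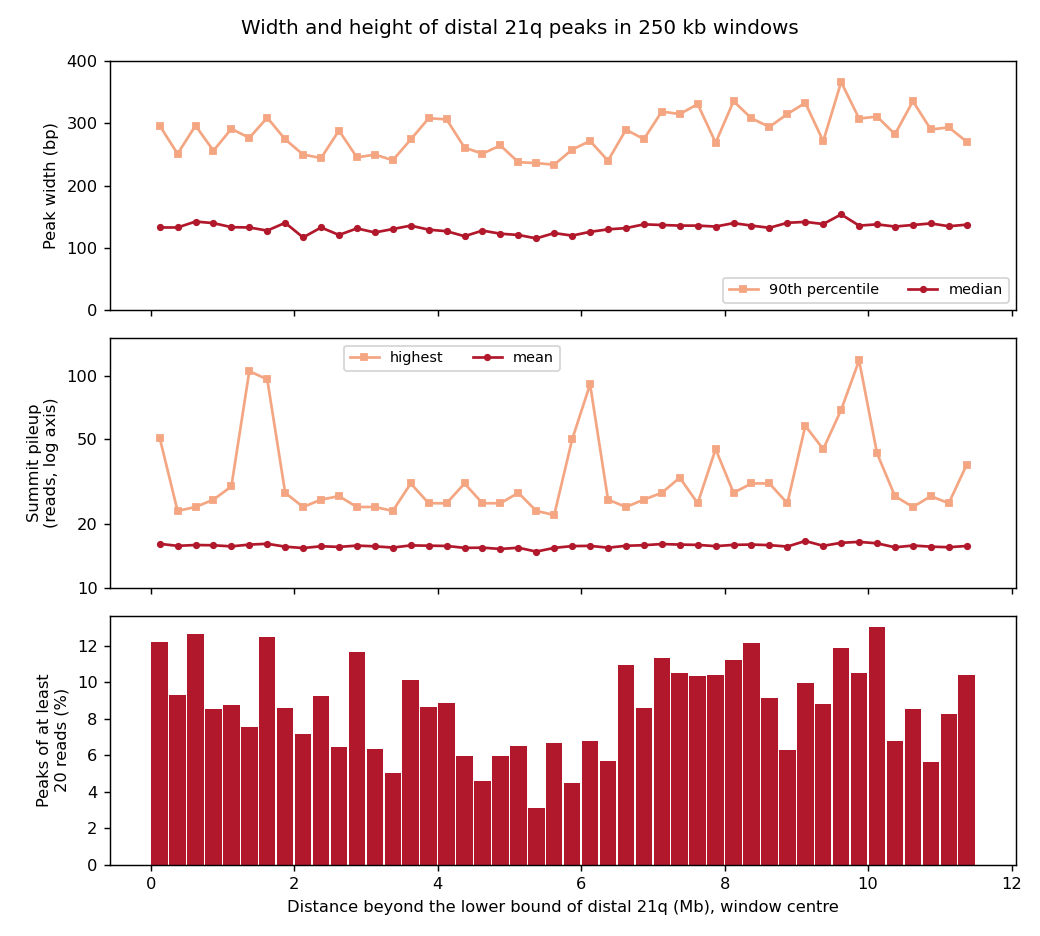
Per full 250 kb window of distal 21q, by distance of the window centre beyond the lower bound in Mb: peak width in bp (median and 90th percentile), summit pileup in reads on a log axis (mean and highest peak) and the share of peaks with at least 20 reads in percent. Medians of width stay between 115.5 and 154 bp and mean pileups between 14.8 and 16.6 reads, while the highest peak of a window ranges from 22 to 118 reads.

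Taller peaks are wider, so widths were also read at equal pileup. At 12 reads the medians were 66.5 bp in distal 21q, 63 bp in proximal 21q and 66 bp on the other autosomes. At 15 reads they were 125, 113 and 114 bp, for 1731, 258 and 50557 peaks in the same order. At 20 reads they were 241 bp (n = 341), 166 bp (n = 12) and 183 bp (n = 1990). The contrast with proximal 21q was largest at 20 reads and did not widen steadily, and few proximal peaks were this tall. Distal and proximal medians were 214 and 178 bp (15 proximal peaks) at 19 reads, and 262 and 237 bp (8 proximal peaks) at 21 to 24 reads. The distal peaks thus exceeded the other autosomes by 0.5 bp at 12 reads, 11 bp at 15, 21 bp at 17 and 58 bp at 20. No single autosome reached the distal median at either height, with 111 to 118.5 bp at 15 reads and 168 to 193.5 bp at 20 reads over the 21 others. The order was the same among peaks that stood alone. Among peaks of 20 reads with no other summit within 1000 bp, the median was 258 bp in distal 21q (n = 53) and 179 bp on the other autosomes (n = 1238), and at 15 reads 119 bp (n = 272) and 113 bp (n = 37026). Among peaks at the shared background alone, the medians at 20 reads were 241 bp and 182 bp.

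**Figure D3:**
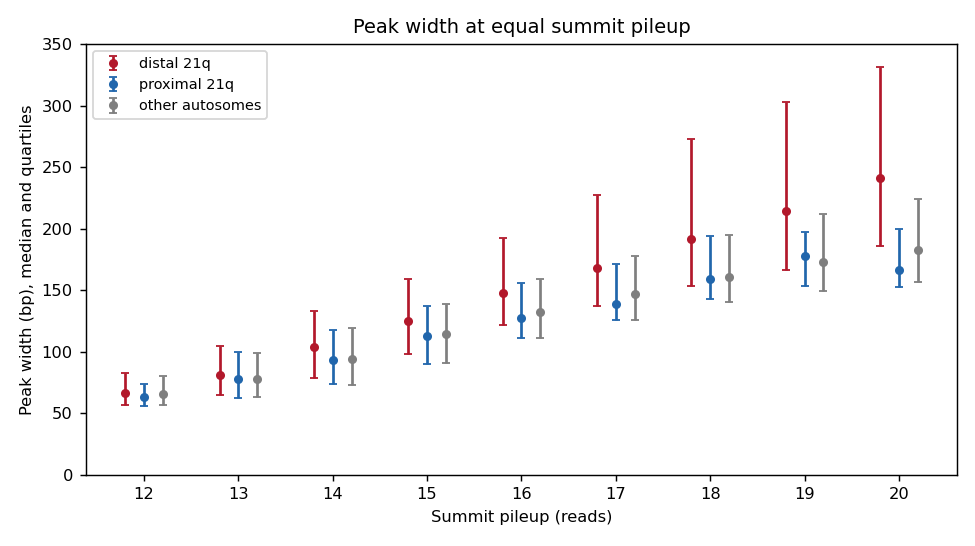
Peak width in bp (points, medians; bars, quartiles) against summit pileup in reads, for peaks of exactly that pileup in distal 21q, proximal 21q and the autosomes other than 21. The 3 medians lie within 3.5 bp of each other at 12 reads, and at 20 reads the distal median is 241 bp, against 166 bp (proximal, 12 peaks) and 183 bp.

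Heights differed mostly in how many peaks were moderately tall. Typical heights were close, with a median pileup of 15 reads in distal and 14 in proximal 21q. The authors' fold over background had medians of 3.03 in distal and 2.84 in proximal 21q. At most sites 1 read changes the fold by 0.189, so these medians are 1 read apart. The upper 5% of peaks began at 21 reads in distal and 17 reads in proximal 21q. A q of at most 0.01 was met by 4431 distal peaks (42.0%, 41.1 to 43), against 281 proximal peaks (17.8%, 15.9 to 19.8) and 20.7% of the whole list. For q of at most 0.05 the shares were 92.4% and 88.1%, against 89.4% of the list.

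The density ratio depended on the height counted. The intervals given for these ratios treat peaks as independent counts. Counts per window varied more than such counts would, with a mean of 17.9 and an SD of 13.8 in proximal 21q and 225.8 and 39.2 in distal 21q. The intervals are thus too narrow as a measure of spread. Over proximal 21q the ratio was 12.5 for all peaks and 30.8 (27.3 to 34.8) for peaks of at least 16 reads. It was 64.8 (44.2 to 98.8) for at least 20 reads, where 936 distal and 27 proximal peaks were counted. For at least 25 reads it was 25.6 (12 to 65.4), with 96 and 7 peaks. Over the other autosomes the ratio was 8.23 for all peaks, highest at 20 reads with 32.3 (30.1 to 34.6), and lower again at 25 reads with 9.74 (7.86 to 12) and at 40 reads with 5.01 (2.79 to 8.32). Of peaks with at least 40 reads, 15 lay in distal and 0 in proximal 21q. As shares of all peaks these were 0.142% (0.0796 to 0.234) and 0% (0 to 0.233), against 0.233% on the other autosomes. For at least 25 reads the shares were 0.910% (0.738 to 1.11) in distal and 0.443% (0.178 to 0.911) in proximal 21q, against 0.769% on the other autosomes. Over the other autosomes the ratio was thus largest at the limits of 18, 20 and 22 reads and smaller when only taller peaks were counted.

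**Figure D4:**
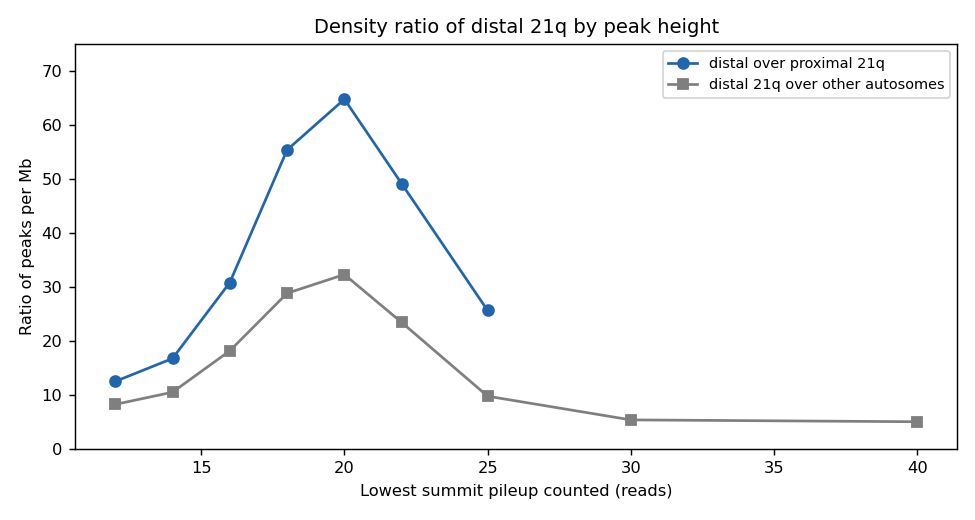
Ratio of peaks per Mb in distal 21q to those in proximal 21q and on the other autosomes, for peaks of at least the summit pileup on the horizontal axis (reads); the proximal line ends at 25 reads, where 7 proximal peaks remain. Both lines are highest at 20 reads, with ratios of 64.8 and 32.3, and lower at 25 reads, with 25.6 and 9.74.

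Window heights were even. The median pileup was 15 reads in 42 of the 46 windows, 16 in 3 and 14 in 1, the emptiest. Mean pileups ran from 14.8 reads in that window to 16.6 in chr21:45421596-45671595. The share of peaks with at least 20 reads varied more, from 3.12% in the emptiest window to 13% in chr21:46421596-46671595. By block it was 9.93% (8.58 to 11.4), 8.06%, 5.87% (4.71 to 7.22), 9.45%, 9.96% (8.71 to 11.3) and 9.17%. Fuller windows held somewhat taller peaks, with a rank correlation of 0.539 between count and mean pileup. Between count and the share of peaks of at least 20 reads it was 0.375. The count had a rank correlation of 0.505 with the number of peaks of at least 25 reads. That number is part of the count, so it does not speak to height alone.

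The tallest peaks lay in both dense and sparse windows. The strongest by both q and fold was chr21:46345052-46345601, with 118 reads and a fold of 22.5, which ranks 48th by q among all 315787 peaks. Then came chr21:37860269-37860733 with 105 reads and a fold of 20.1, chr21:37958043-37958394 with 96 reads and chr21:42463058-42463513 with 91. Next was chr21:45923797-45924371 with 69 reads and a fold of 13.2. Then followed chr21:45579522-45580079 with 58 reads, chr21:36578752-36579201 with 51 and chr21:42197069-42197331 with 50. The last of the 10, chr21:46351027-46351417 and chr21:45471489-45471825, had 48 and 47 reads. The peak of 50 reads lay in one of the 3 emptiest windows. All 10 had the shared background. The tallest proximal peak, chr21:32731934-32732286, had 30 reads and a fold of 5.86.

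Strong peaks were most frequent in the densest block, 8 to 10 Mb beyond the bound. Peaks of at least 25 reads numbered 18 per Mb there, against 7, 3.5, 5 and 7.5 in the blocks before it and 8.34 in the last. Of the 96 distal peaks with at least 25 reads, 61 lay more than 7 Mb beyond the bound, a limit set after the peaks were seen, in a stretch with 40.1% of the length and 44.1% of all distal peaks. Of the 20 strongest by q, 15 lay there. The window chr21:45421596-45671595 alone held 11 peaks of at least 25 reads and 7 of the 20 strongest. By contrast, 10 of the 46 windows held 0 peaks of that height.

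A background above the common level was more frequent in distal than in proximal 21q. The peak caller's local background had a floor of 4.29 reads, shared by most peaks of the list. It lay above that floor at 1524 distal peaks (14.4%, 13.8 to 15.1), against 38 proximal peaks (2.41%, 1.71 to 3.29) and 3.64% on the other autosomes. Where it did, it had a median of 5.17 reads and at most 9.40 in distal 21q. A high share also occurred at the end of chromosome 4. In its last stretch of the same length, 31.9% of peaks lay above the floor, at a mean of 106.7 peaks per Mb. That stretch was uneven, as it includes chr4:190500001-190750000 with 316 peaks, so its mean does not describe the local density. The distal share was larger among taller peaks, from 7.02% (5.96 to 8.2) at 12 to 13 reads to 24.4% (21.5 to 27.5) at 20 to 24 reads. The proximal shares at these heights were 1.73% (0.866 to 3.07) and 20% (5.73 to 43.7, 20 peaks). On the other autosomes the share also rose with height, from 1.62% to 19.5% at the same heights. At 25 reads or more the distal share was no longer the highest. It was 24.0% (15.8 to 33.7, 96 peaks) there, against 28.6% (7 peaks) in proximal 21q and 42.5% on the other autosomes. Over the 46 distal windows the share for peaks of all heights ran from 6.76% to 20.1%, with a rank correlation of 0.207 with the count. Counting peaks at the floor alone, the density ratio over proximal 21q was 10.9. Peaks at the floor all carry the same background value, so differences in local background among them cannot be seen in the list. The part of local background in the density was not tested.

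Summits in distal 21q were mostly within 1 kb of the next. The median distance between successive summits was 794 bp (quartiles 443 and 1392), against 6815 bp (quartiles 2356 and 16604) in proximal 21q. Of 10548 distances, 6431 (61.0%, 60 to 61.9) were at most 1000 bp, against 165 of 1579 (10.4%, 8.98 to 12.1) in proximal 21q. Distances over 10 kb numbered 6 in distal and 630 in proximal 21q. The closest summits were 72 bp apart, at chr21:39936719-39936928, followed by pairs 84 bp apart at chr21:43233613-43233849 and chr21:44605926-44606201.

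Relative to its own mean, spacing was more even in distal 21q. The median distance was 71.7% of the mean of 1107 bp in distal 21q and 49.3% of the mean of 13816 bp in proximal 21q. The SD over the mean was 1.09 in distal 21q and 1.68 in proximal 21q. Without its 2 longest distances the distal value was 0.911. The proximal value was not trimmed in this way and includes distances of 438.2 and 369.6 kb. Proximal 21q was also graded in density, and how far this enters the contrast in spacing was not tested. Distances of at most 0.1 of the mean made up 0.256% in distal and 14.3% in proximal 21q. In distal 21q 0.1 of the mean is close to the width of a peak, which limits how near 2 summits can lie, so the lower ends are not alike in meaning. Distances over 3 times the mean made up 3.79% and 6.71%.

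**Figure D5:**
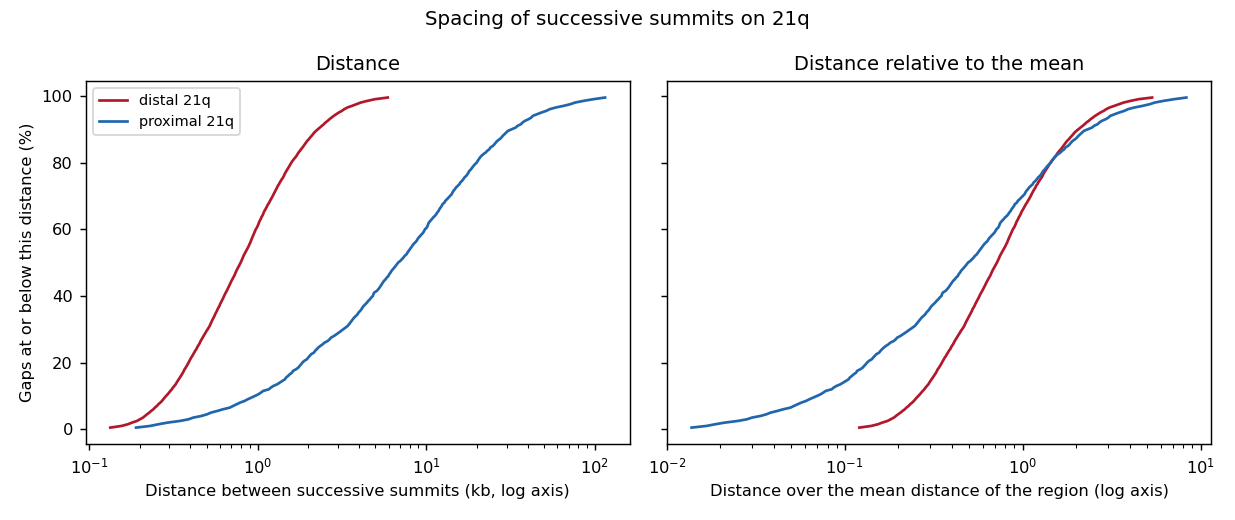
Share of distances between successive summits (percent) at or below the distance on the horizontal log axis, in kb and relative to the mean distance of each region, for distal and proximal 21q. The distal curve lies at shorter distances throughout, with a median of 794 bp against 6815 bp, and is steeper than the proximal curve once both are scaled by their means.

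Close summits joined into runs. When summits at most 1000 bp apart were chained, distal 21q had 576 runs of 5 or more peaks, holding 3948 peaks (37.4%), and proximal 21q had 0. Runs of 10 or more numbered 66. The limit of 1000 bp was the same in both regions, so run counts rise with the density for which the stretch was chosen. Whether summits cluster beyond that density was not tested. The longest run, chr21:44932823-44946262, held 26 peaks in 13.4 kb with pileups from 13 to 30 reads. Peaks with no neighbour at that distance made up 16.5% in distal and 80.9% in proximal 21q. Taller peaks were fewer and so necessarily farther apart. Distal peaks of at least 20 reads had a median distance of 7749 bp to the next one, and those of at least 25 reads 65902 bp. These medians were 62.1% and 54.8% of their own means, against 71.7% for all distal peaks.

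Long peak-free stretches were rare. The longest distance between distal summits was 50.9 kb, across the peak-free chr21:42954880-43005631, and the next 50.4 kb, across chr21:44632459-44682743. The third, at chr21:38076869-38090642, was 13.8 kb, followed by 11.3 kb at chr21:36864943-36876126 and 10.7 kb at chr21:36516166-36526814. None of these 5 lay in the trough, where the spacing was wider as a whole. The median distance was 1547 bp in the emptiest window, against 654 bp in the densest. In proximal 21q the longest distance was 438.2 kb.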

How the data were processed

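The authors deposited 1 narrowPeak list of the tagged pool. The submitters' processing notes name build hg19, MACS2 2.1.1.20160309 and Bowtie2 2.2.3, with roles and settings not given in the sources used here. The deposited fold column was read as a linear ratio, that of the summit's pileup to the background around it, and the deposited −log10 columns as −log10 p and −log10 q, with all q below 0.1. The deposited score column, made from −log10 q, was not used further. The depth of the libraries is unknown. Depth is given as summit pileup, solved from fold = (pileup + 1)/(background + 1) and the Poisson tail for p, and whole within 0.05 for all but 1 peak of the list, which is not on distal 21q. That step recovered the pileup of 100% of 4996 simulated peaks. Their fold and p were made with the same formulas, so this checks the solving only, not how the deposited values were computed. That the control behind the background is the untagged pool is assumed.

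Samples were grouped by transduction label, 1 pool each. Summits are the start plus summit offset, as in the file, and a window or region holds a peak by its summit. Regions named are the densest and emptiest 3 windows, the 10 strongest peaks by −log10 q, the 5 highest by fold (which the 10 include), the 3 widest, the 5 longest and 3 closest distances and 3 peaks on each side of the bound; others were chosen after their values were seen. Members, regions and the gene list were chosen with earlier results of these data known. Ratio intervals are exact, conditional on the summed count. Rank correlations are Spearman's. The autosome densities use first to last peak. Software was Python 3.11.15 with scipy 1.17.1, pandas 2.3.3, matplotlib 3.10.9 and numpy 2.4.6.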

Additional observations from a re-analysis of the deposited data

How the results depend on the processing

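Of 38 alternatives, 14 left a value within 1.5 times (counts, densities, ratios, correlations) or within its interval (medians, shares), 24 moved it and 0 turned the density ratio below 1. Stricter thresholds keep fewer, taller peaks by construction. The distal density of 903.3 per Mb was 379.4 at q of at most 0.01, 167.5 at 0.001 and 291 with peaks within 1000 bp merged. The ratio to proximal 21q, 12.5, was 29.5 at 0.01, 53 at 0.001, 4.55 after merging, which joins 10549 distal peaks into 3398, 8.23 over all other autosomes and 5.64 over their median end. The fullest over the emptiest window, 2.35, was 4.21 at 0.01, and there the densest window was chr21:45421596-45671595. Median width, 133 bp, was 138 at 0.05, 185 at 0.01, 227 at 0.001 and 125 at 15 reads. Median fold was 3.4 at 0.01 and 3.78 at 0.001, and median pileup 17 and 19. The share past q was 92.4% at 0.05 and 18.5% at 0.001. Median spacing, 794 bp, was 2955 after merging and 1743 at 0.01. As a percentage of the mean, 71.7, it was 73.7 within own windows, 86 after merging and 66.2 at 0.01. Other window grids kept the densest and emptiest places within 43421596 to 43921595 and 41671596 to 42421595. No paired analysis was possible because only 1 pool has a list, and no replicate could be left out. The list holds no peak below 12 reads, so lower sites cannot be compared.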

Other observations

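The 2 longest peak-free stretches of distal 21q were nearly equal, at 50.8 kb and 50.3 kb, while the third was 13.8 kb. With them taken out of the window length, the windows they cross had 1009, 1058 and 1172 peaks per Mb, against 804, 892 and 1120 as counted. The counts of these 3 windows and the 2 longest distances rest on these stretches. What they are was not tested, as no hg19 sequence was used here.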
